A study of Rattus norvegicus with 24 samples.

Results

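The difference of microvessel enrichment between retina and brain was measured for 18166 genes, which are all the genes that the array lists under 1 symbol. For each gene, the enrichment of retinal microvessels (RMVs) over whole retinal tissue (RT) was compared with the enrichment of brain microvessels (BMVs) over whole brain tissue (BT). The difference of enrichment is (RMVs minus RT) minus (BMVs minus BT) on the log2 scale, so that 1 unit is a 2-fold change. It is positive for a gene that is more enriched, or less depleted, in the microvessels of the retina. The same number equals (RMVs minus BMVs) minus (RT minus BT), and this second form separates what lies in the microvessels from what lies in the tissues to which they were compared.

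RNA was taken from male Wistar rats aged 12 weeks, and no group was treated. The 4 groups were RMVs, RT, BMVs and BT, with 6 Rat Gene 2.0 ST arrays per group and 24 in all. The study used 6 rats for all groups, so the 24 arrays share animals. Cryosections of the retinae and of a brain hemisphere of each rat served as whole tissue, and the remaining sections were homogenised, spun through a density gradient and passed over a nylon mesh that retained the vessels. White matter, choroid plexus, the meninges and the vessels of the surface had been removed from the brain. The vessels were retained by the mesh and not sorted by cell type, and the study describes preparations of this kind as histologically free of tissue fragments. It also reports that markers of photoreceptors, neurons and astroglia were depleted in them, and regards its arrays as further support for high purity.

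The capillaries of retina and brain are lined by endothelial cells that are sealed by tight junctions and ensheathed by pericytes, and together these layers form the blood-retina and the blood-brain barrier. Enrichment over the whole tissue is a common way to recognise vessel genes, because a transcript of the vessel wall is diluted in the tissue by RNA of neurons and glia. The measure has 4 terms, and a gene that neurons or glia of only 1 of the organs express can change it as much as a gene that the vessels of only 1 organ express.

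The labels were checked against markers first. The mean log2 signal of 25 measured endothelial genes ranged over the arrays from 9.94 to 10.5 in RMVs, from 6.86 to 7.08 in RT, from 10.96 to 11.08 in BMVs and from 7.5 to 7.63 in BT. Their median enrichment was 3.49 between RMVs and RT and 3.91 between BMVs and BT. For 33 photoreceptor genes the mean signal was 10.47 to 10.83 in RMVs and 11.07 to 11.23 in RT, while BMVs gave 5.44 to 5.59 and BT gave 4.85 to 5.05. The median of RMVs minus RT over these genes was -0.44. Gnat1, the rod transducin subunit, averaged 13.87 in RMVs and 14.03 in RT, near the upper end of all values (14.1). For 19 pan-neuronal genes the mean signal was 9.33 to 9.61 in RMVs and 10.28 to 10.49 in RT, while BMVs gave 9.05 to 9.35 and BT gave 11.69 to 11.81. Pecam1 and Kdr were not analysed here. The medians of the arrays were 6.76 to 6.83 in RMVs, 6.10 to 6.22 in RT, 6.48 to 6.55 in BMVs and 5.81 to 5.95 in BT, and no array lay closer to another group than to its own.

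Of the 18166 genes, 1893 were more enriched in RMVs and 935 were less enriched in RMVs, which were 10.4% and 5.15% of the genes tested (limma, at least 2-fold, Benjamini-Hochberg adjusted p below 0.05). The median difference of all genes was 0.07. The enrichments themselves had an SD across genes of 0.67 between RMVs and RT and 1.08 between BMVs and BT, and they correlated across genes with r = 0.72, where genes are not independent replicates. In RMVs over RT 10.3% of the genes were higher and 0.947% were lower, whereas in BMVs over BT 16.3% were higher and 10.5% were lower. The arrays of the microvessels had higher medians than those of the tissue, at 6.81 against 6.17 in retina and 6.50 against 5.91 in brain. These shares can depend on this scaling and are given for the deposited values only. At the same thresholds the study reported fewer higher and more lower genes in both comparisons, from its own set of genes. Just inside the 2-fold threshold lay Lyrm1 at 1.00018 and Lpcat1 at -1.00015, and just outside it Npsr1 at 0.999753 and Adgre4 at -0.999512, so genes near the threshold did not differ in size.

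Most genes that were more enriched in RMVs were not higher in RMVs than in RT by the threshold. Of the 1893, 1330 were lower in BMVs than in BT and passed no threshold between RMVs and RT, and 81 were lower in the microvessels of both organs. Only 146 were higher in RMVs than in RT without being called in brain, 20 were higher in the microvessels of both organs, 8 were higher in RMVs and lower in BMVs, and 308 were called in neither enrichment. The 935 genes in the other direction were distributed differently. Here 540 were higher in BMVs than in BT and not called in retina, 247 were higher in the microvessels of both organs, 134 were called in neither, 12 were lower in RMVs only, and 2 were lower in RMVs and higher in BMVs. A missed threshold in 1 organ does not show that the gene was at the same level in its 2 samples. The scaling of microvessel and tissue arrays also enters these counts.

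Each called gene was then assigned by its 2 parts. Between RMVs and BMVs 5.72% of the genes were higher and 5.25% lower, and between RT and BT 6.29% were higher and 11.1% lower. A gene was counted as carried by the microvessels if the RMVs and BMVs differed at least 2-fold in the direction of the difference while RT and BT passed no threshold, and as carried by the tissues in the reverse case. Among the genes more enriched in RMVs, 265 were carried by the microvessels and 1064 by the tissues. Among those less enriched, 280 were carried by the microvessels and 265 by the tissues, and this balance depended on the scaling, with 324 and 232 after quantile normalization and 403 and 199 after centring each array on its median. In a further 20 genes of the first direction and 6 of the second the 2 parts were both called and opposed, so that they added up. Both parts were called with the same sign in 29 and 20 genes in which the microvessels differed more, and in 152 and 94 genes in which the tissues differed more. In 363 and 270 genes neither part reached 2-fold alone.

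**Figure D1:**
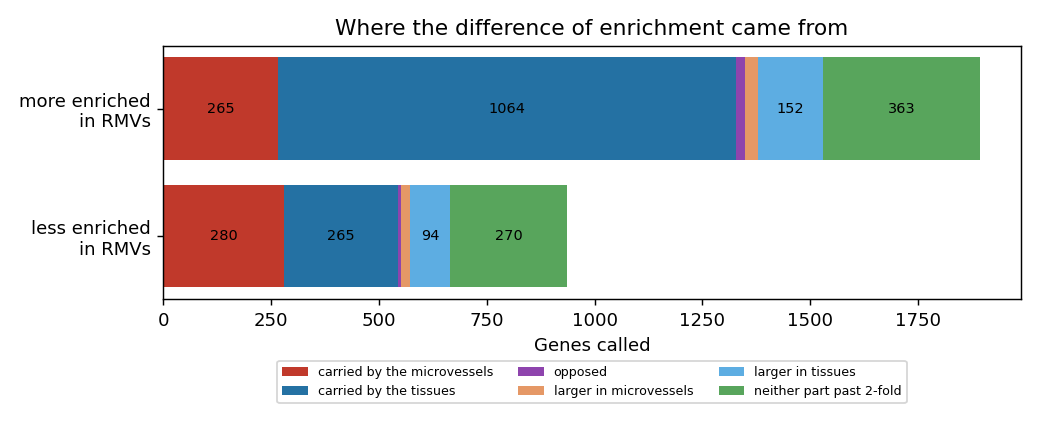
Number of genes more and less enriched in RMVs (horizontal axis, genes called), divided by where the difference lay. The tissues carried 1064 of the 1893 genes in the upper bar, against 265 carried by the microvessels, while in the lower bar the counts were 265 and 280.

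The interval of the other part was considered for the genes carried by the microvessels or by the tissues. These classes already required that the other part passed no threshold. Intervals within 2-fold therefore follow in part from this selection, and they are no separate evidence that the other part was small. The 95% interval of RT minus BT lay within 2-fold for 238 of the 265 genes more enriched through the microvessels and for 257 of the 280 less enriched ones. The interval of RMVs minus BMVs lay within 2-fold for 967 of the 1064 genes more enriched through the tissues and for 239 of the 265 less enriched ones. In the tissue-carried genes of the first direction the median of RT minus BT was -1.62 and that of RMVs minus BMVs was -0.07. They were thus genes that whole brain expressed more than whole retina, with no call between the 2 microvessel preparations. Smaller differences between these preparations remained, and in 410 of the 1064 genes the RMV and BMV arrays did not overlap. The shares of higher genes in the 2 parts depended on the scaling of the arrays. Of the genes called between RMVs and BMVs 52.2% were higher as deposited, 40.7% after quantile normalization and 26.6% after centring each array on its median. For RT against BT these shares were 36.1%, 35.3% and 20.5%. In the difference itself, where a shift common to the arrays of an organ cancels, they were 66.9%, 59.5% and 64.3%.

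**Figure D2:**
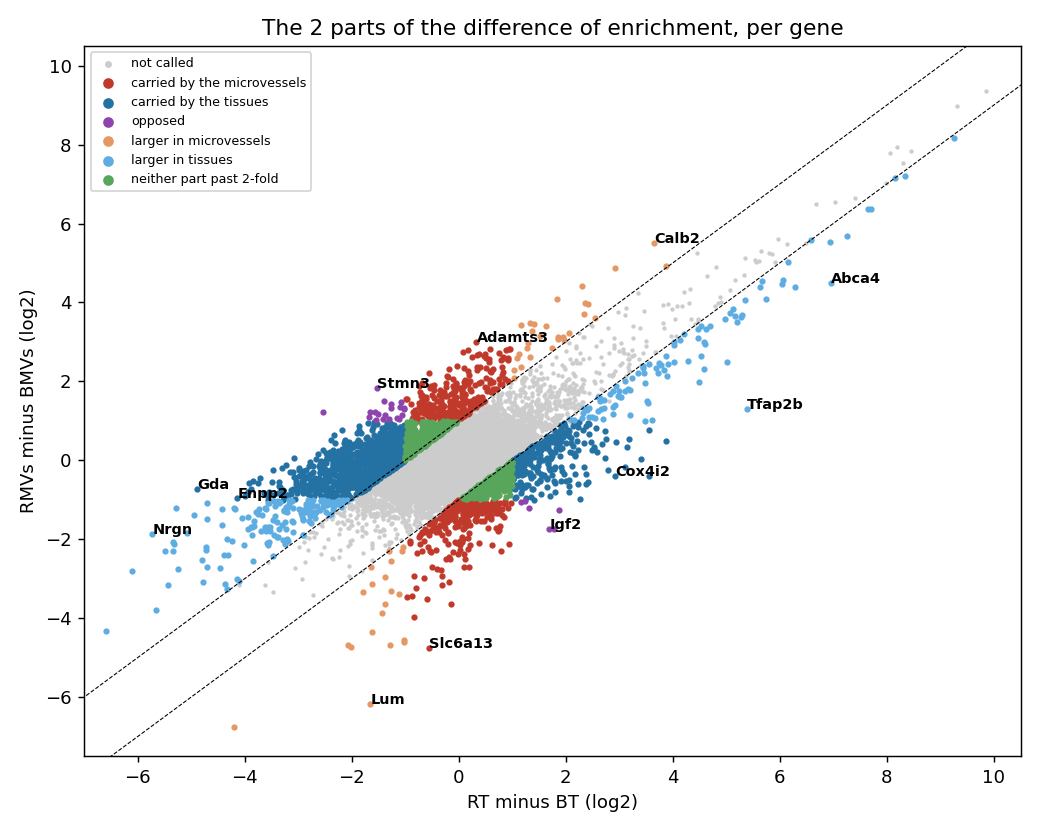
RMVs minus BMVs (vertical axis, log2) against RT minus BT (horizontal axis, log2) for 18166 genes, with called genes coloured by class; dashed lines mark a difference of enrichment of 1 and -1. Genes above the upper line were more enriched in RMVs, and most of them extend to the left, where BT exceeded RT; Lum and Slc6a13 extend downwards, where BMVs exceeded RMVs.

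The largest differences carried by the tissues came from genes that were far more abundant in brain than in retina. Gda, the guanine deaminase of purine breakdown, gave 9.52, 9.65 and 10.08 in RMVs (lowest, median and highest log2 signal of the 6 arrays) and 6.01, 6.20 and 6.53 in RT, while BMVs gave 10.41, 10.49 and 10.58 and BT gave 11.01, 11.11 and 11.28. All RMV arrays were above all RT arrays, whereas all BMV arrays were below all BT arrays. Its difference was 4.15 ± 0.14 (SE; limma adjusted p = 1.63e-18), of which RT minus BT made up -4.89 and RMVs minus BMVs -0.73. Gda therefore appeared as a 3.52 log2 enriched gene in RMVs and not in BMVs, although its signal was lower in RMVs than in BMVs.

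Enpp2, which encodes autotaxin, the secreted enzyme that makes lysophosphatidic acid, was also low in RT alone, but the brain groups ran the other way than in Gda. Its signals were 10.31, 10.60 and 10.87 in RMVs and 6.54, 6.86 and 7.74 in RT, while BMVs gave 11.27, 11.61 and 11.66 and BT gave 10.94, 11.11 and 11.21. The RT arrays lay below every other array, all BMV arrays were above all BT arrays, and the difference was 3.19 ± 0.20 (limma adjusted p = 2.07e-13). The other tissue-carried genes with the largest differences, Hapln1 (3.32), which links hyaluronan to proteoglycans, C5h8orf34 (3.34), Actn2 (3.22), an actin cross-linking alpha-actinin, and the matricellular Ccn3 (3.26), had a value of RT minus BT between -3.93 and -3.47. In these 4 genes RMVs minus BMVs ranged from -0.58 to -0.26.

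In 152 genes brain and retina differed the same way in microvessels and tissues, and the larger tissue part gave the difference its sign. Nrgn, the calmodulin-binding postsynaptic protein neurogranin, gave 7.19, 7.49 and 7.75 in RMVs and 5.55, 5.66 and 5.85 in RT, while BMVs gave 9.21, 9.32 and 9.47 and BT gave 11.20, 11.44 and 11.61. The 4 groups did not overlap, and RMVs were above RT while BMVs were below BT. With RMVs minus BMVs at -1.88 and RT minus BT at -5.73, the difference of enrichment was 3.85 ± 0.12 (limma adjusted p = 7.37e-19). Gabra5, the alpha5 subunit of the GABA-A receptor, reached 4.07 ± 0.19 with parts of -1.21 and -5.28.

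**Figure D3:**
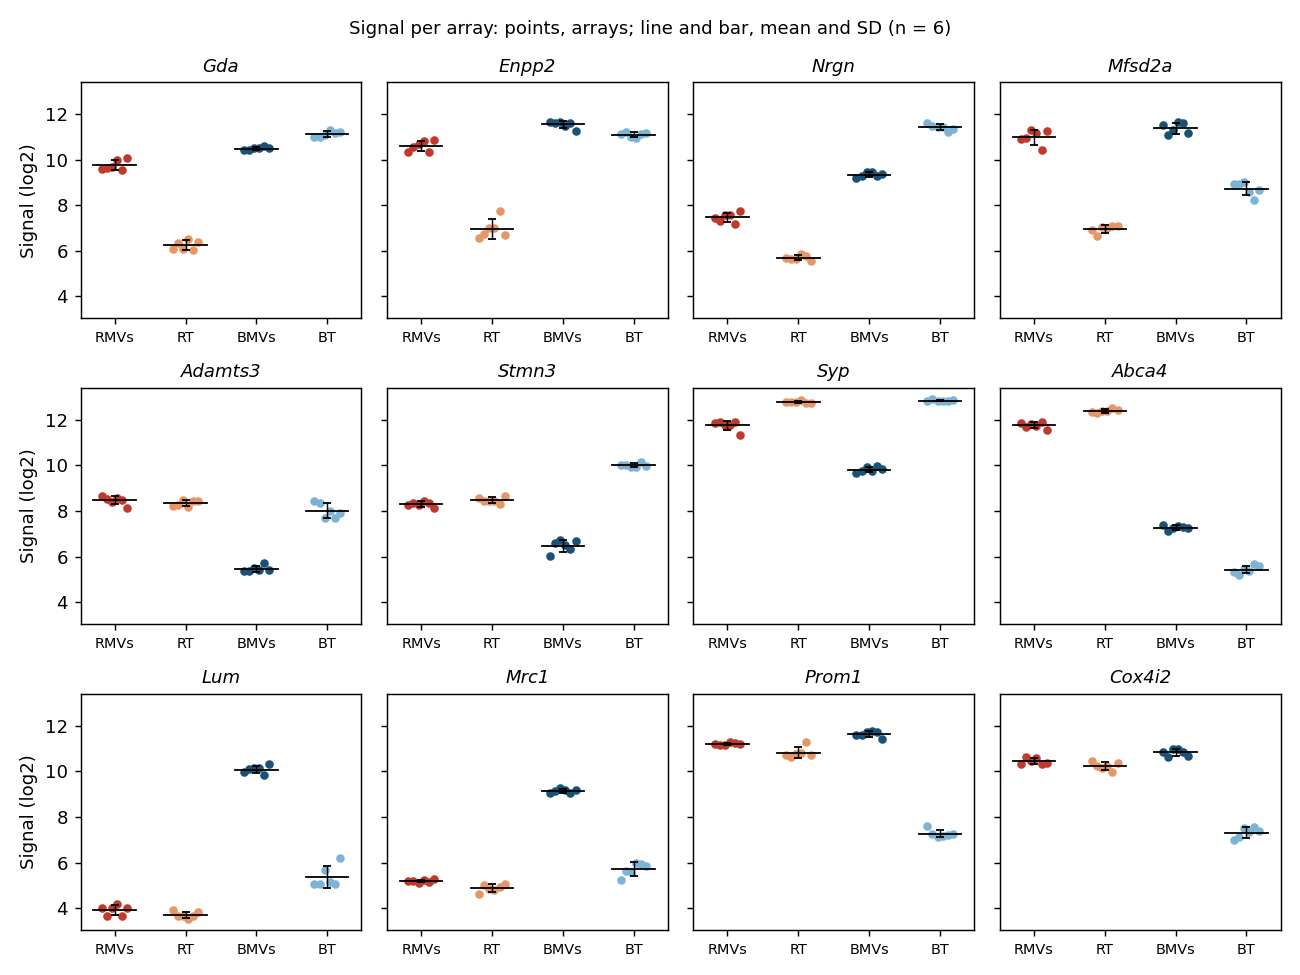
Log2 signal (vertical axis) of 12 genes on each of the 24 arrays in RMVs, RT, BMVs and BT, with the mean and SD of each group. In Gda, Enpp2, Nrgn and Mfsd2a the RT arrays are low, in Adamts3, Stmn3 and Syp the BMV arrays are low, in Lum and Mrc1 the BMV arrays alone are high, and in Prom1 and Cox4i2 the BT arrays alone are low.

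The genes that were more enriched in RMVs through the microvessels were mostly depleted in BMVs. Of the 265, 27 were called higher in RMVs than in RT and 216 lower in BMVs than in BT. Of the 6 with the largest differences, none was called between RMVs and RT, and all were called lower in BMVs than in BT. Adamts3, a protease that processes procollagen, gave 8.15, 8.51 and 8.66 in RMVs and 8.17, 8.35 and 8.49 in RT, while BMVs gave 5.37, 5.42 and 5.70 and BT gave 7.68, 7.94 and 8.43. Only the BMV arrays stood apart, and the difference was 2.67 ± 0.16 (limma adjusted p = 1.33e-13). The remaining 5 were Ppp2r2b (2.66), a brain form of a regulatory subunit of protein phosphatase 2A, Slc4a10 (2.66), a sodium-driven bicarbonate transporter of neurons, the neuronal adhesion proteins Cntn4 (2.62) and Cntnap5b (2.78), and the dopamine receptor Drd1 (2.62). Their values of RMVs minus BMVs lay between 1.87 and 2.80, and those of RT minus BT between -0.75 and 0.18.

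In 20 genes the parts were opposed, with RMVs above BMVs and RT below BT. Stmn3, a microtubule-destabilising stathmin of neurons, gave 8.12, 8.30 and 8.46 in RMVs and 8.31, 8.45 and 8.66 in RT, while BMVs gave 6.02, 6.55 and 6.73 and BT gave 9.92, 9.995 and 10.15. The retinal samples overlapped, and the BMV and BT arrays lay on either side of them. Ano3, an anoctamin membrane protein, and St8sia3, a sialyltransferase, followed with differences of 3.75 ± 0.17 and 2.91 ± 0.15. Hbb-b1, a beta globin of red blood cells, also belonged here, but with 11.54 in RMVs and 8.25 in RT, while BMVs gave 10.32 and BT gave 9.92 (means, n = 6 each). Of the 4 measured red blood cell genes it was the only one called, and the mean signal of the 4 was 7.0 to 7.58 in RMVs and 5.66 to 5.93 in RT, while BMVs gave 6.62 to 7.01 and BT gave 6.00 to 6.33. The part of blood left in the vessels in this value was not tested.

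Larger microvessel parts of equal sign were found for Marchf1, a membrane-bound ubiquitin ligase that acts on MHC class II, and for Mir124-3, a gene of the neuronal microRNA miR-124. Marchf1 averaged 9.10 in RMVs and 9.25 in RT, while BMVs gave 5.66 and BT gave 8.09. Mir124-3 averaged 7.14 in RMVs and 6.30 in RT, while BMVs gave 3.06 and BT gave 4.47, and its difference was 2.25 ± 0.14 (limma adjusted p = 4.85e-13). Mir124-2, another locus of the same microRNA, had a difference of 1.08 with RMVs minus BMVs at 3.05, and Mir124-1 was not called (0.58; 95% interval 0.31 to 0.85). Loci with the same mature sequence are hard to separate by hybridization.

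Neuronal markers formed the most uniform group. Of 19 pan-neuronal genes measured, 18 were more enriched in RMVs and none was less enriched, and their median difference was 1.56, against 0.07 over all genes. As a list they were depleted in the microvessels of both organs, and less so in retina. The median enrichment was -0.78 between RMVs and RT and -2.72 between BMVs and BT. For comparison with this and the later lists, 10.4% of all genes were more and 5.15% less enriched. The tissues carried 12 of these genes and the microvessels 3. The 3 were the synaptic vesicle proteins Syt1 (2.20) and Syp (1.99) and the neuronal enolase Eno2 (1.49). Syp gave 11.34, 11.82 and 11.90 in RMVs and 12.73, 12.79 and 12.89 in RT, while BMVs gave 9.66, 9.80 and 9.96 and BT gave 12.81, 12.85 and 12.92. The ranges of RT and BT overlapped, whereas every RMV array was above every BMV array. By contrast Rbfox3, the NeuN antigen of neuronal nuclei, Gap43, the growth-associated protein, and Syn2, a synapsin of synaptic vesicles, had RMVs minus BMVs at -1.09, -0.73 and -0.44 and RT minus BT at -3.57, -3.05 and -2.68.

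Of 26 measured markers of forebrain neurons, 24 were more enriched in RMVs and none was less enriched (median 2.18). Their median enrichment was -0.21 between RMVs and RT and -2.39 between BMVs and BT. The tissues carried 13, the microvessels 3, 6 were larger in the tissues and 2 were opposed. Besides Gabra5 and Nrgn, the largest differences were those of the cortical transcription factors Neurod6 (3.03) and Tbr1 (2.99). Slc17a7, the vesicular glutamate transporter that retinal photoreceptors also use, was carried by the microvessels with 12.16 in RMVs and 12.77 in RT, while BMVs gave 10.09 and BT gave 12.88. As a list, the forebrain markers lay at 7.28 to 7.49 in RMVs and 7.43 to 7.66 in RT, while BMVs gave 7.19 to 7.49 and BT gave 9.61 to 9.73, so that BT alone was higher. In bulk samples, fewer cells of a type and less RNA per cell cannot be told apart. After quantile normalization 19 of the forebrain and 15 of the pan-neuronal genes were called.

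Markers of myelinating cells behaved similarly, but with large parts in the vessels too. Of 20 measured oligodendrocyte genes, 12 were more enriched in RMVs and 1 was less enriched (median 1.22), and quantile normalization left 8 genes more enriched in RMVs. Mbp, the myelin basic protein, averaged 6.46 in RMVs and 5.59 in RT, while BMVs gave 8.58 and BT gave 10.91. Its difference was 3.21 ± 0.13 with RMVs minus BMVs at -2.12 and RT minus BT at -5.32. Mal (3.13), a membrane protein of myelin, and the tetraspanin Tspan2 (2.33) were carried by the tissues. The exception was Pdgfra (-1.52), the receptor of oligodendrocyte precursors that fibroblasts also express. Over the list, signals were 6.57 to 6.72 in RMVs and 6.02 to 6.18 in RT, while BMVs gave 8.37 to 8.71 and BT gave 9.25 to 9.46, although white matter had been dissected off.

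Astrocytes wrap the capillaries with endfeet, and in the retina they are few and restricted to the inner surface. Of 14 astrocyte genes 5 were more enriched in RMVs and none was less enriched (median 0.44), against 10.4% and 5.15% of all genes. Quantile normalization left 3 of the calls and a median of 0.18. The gap junction proteins Gjb6 and Gja1 had the largest differences, at 2.37 and 2.35. Gja1 gave 8.96, 9.31 and 9.51 in RMVs and 6.53, 6.96 and 8.90 in RT, while BMVs gave 11.02, 11.30 and 11.37 and BT gave 11.40, 11.55 and 11.58. The highest RT array was well above the median of its group, and no RT array reached the lowest RMV array. Itgb8 (1.81), an integrin subunit that activates latent TGF-beta, was carried by the tissues. Among 13 Müller glia genes only Dkk3 (1.68), a secreted protein of the dickkopf family, and Vim (-1.91), the filament protein vimentin, were called, in opposite directions.

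**Figure D4:**
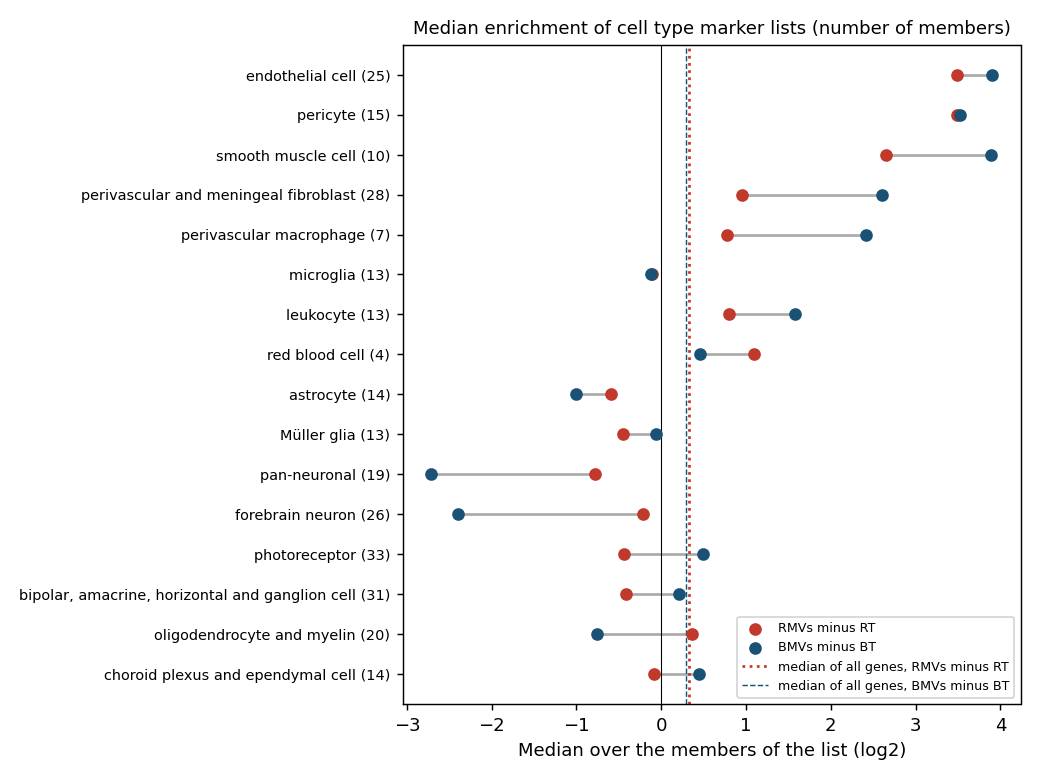
Median enrichment over the tissue of 16 cell type marker lists in RMVs (red) and BMVs (blue), on the log2 scale, with the medians of all genes as vertical lines. The endothelial and pericyte lists lie between 3.49 and 3.91 in both organs, while the pan-neuronal and forebrain neuron lists lie at -0.78 and -0.21 in RMVs and at -2.72 and -2.39 in BMVs.

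Neurons transcribe immediate early genes within minutes of activity. Of 23 measured, 6 were more enriched in RMVs, 5 of them through the tissues, 1 was less enriched and 16 were not called (median 0.47). After quantile normalization 4 were more and 1 was less enriched, with a median of 0.24. Arc, which regulates AMPA receptor trafficking, gave 6.63, 6.79 and 7.01 in RMVs and 6.27, 6.4 and 6.71 in RT, while BMVs gave 7.02, 7.48 and 7.96 and BT gave 8.93, 9.80 and 10.68. The BT arrays were all above the others and were spread more widely than in any other group. The zinc finger factors Egr1 (2.19), Egr2 (2.04) and Egr3 (1.61) were carried by the tissues as well. Ier2 went the other way at -1.62, and Npas4 (1.03) lost its call without replicate 1 of BT (0.75). The promoters of Egr1 and Egr2 are shown because these genes moved together and hold CArG boxes, the binding motif of serum response factor, which is printed in capitals. The windows run 5′ to 3′ from 250 bases before to 50 bases after the RefSeq transcription start (build GRCr8; Egr1 at chr18:26736828-26737127, plus strand, Egr2 at chr20:21054392-21054691, minus strand).
Egr1: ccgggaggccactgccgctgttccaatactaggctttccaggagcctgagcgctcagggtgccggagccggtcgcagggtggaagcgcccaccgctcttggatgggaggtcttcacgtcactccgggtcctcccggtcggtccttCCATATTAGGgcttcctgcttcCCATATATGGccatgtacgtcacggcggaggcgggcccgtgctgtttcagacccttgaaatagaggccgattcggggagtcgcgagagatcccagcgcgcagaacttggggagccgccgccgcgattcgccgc
Egr2: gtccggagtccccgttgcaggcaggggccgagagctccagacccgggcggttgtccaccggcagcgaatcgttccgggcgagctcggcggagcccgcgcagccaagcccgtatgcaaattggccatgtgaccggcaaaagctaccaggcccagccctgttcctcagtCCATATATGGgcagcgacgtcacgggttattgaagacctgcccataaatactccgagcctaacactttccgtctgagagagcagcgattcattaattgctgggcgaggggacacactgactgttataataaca
In Egr1 the boxes were CCATATTAGG from -105 to -96 and CCATATATGG from -83 to -74, and in Egr2 the box CCATATATGG also lay from -83 to -74. Of 14564 tested genes with a window, 199 (1.37%) held a CArG box on either strand, as did 3 of the 15 immediate early genes with a window. A match describes the sequence and is no evidence of binding.

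Of 25 endothelial genes 1 was more and 2 were less enriched in RMVs (median -0.25, and -0.05 after quantile normalization), against 10.4% and 5.15% of all genes. At a 1.5-fold threshold, which 20.9% of all genes passed as more and 13.5% as less enriched, 4 were more and 6 were less enriched. Esam (-0.998), an endothelial adhesion molecule, and Adgrl4 (-0.96), an adhesion G protein-coupled receptor, lay just short of 2-fold. Cdh5, the endothelial cadherin, was enriched by 3.98 between RMVs and RT and by 4.21 between BMVs and BT, and its difference was -0.23 (95% interval -0.53 to 0.06). For the angiopoietin receptor Tek the difference was 0.04 (interval -0.28 to 0.37) and for the drug efflux pump Abcb1a -0.18 (interval -0.54 to 0.17), so changes of 2-fold lay outside the intervals of all 3 genes. Pdgfrb, the receptor that defines pericytes, had a difference of -0.06 (interval -0.33 to 0.22). Abcb1a was nevertheless called lower in both parts, with RMVs minus BMVs at -1.30 and RT minus BT at -1.11, and these parts offset each other in the comparison of enrichments.

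The endothelial gene that was more enriched in RMVs was Mfsd2a, the lipid transporter that suppresses transcytosis at the barrier. It gave 10.41, 11.04 and 11.29 in RMVs and 6.64, 7.02 and 7.08 in RT, while BMVs gave 11.06, 11.40 and 11.63 and BT gave 8.22, 8.79 and 8.99. The ranges of RMVs and BMVs overlapped, whereas every RT array was below every BT array, and the difference of 1.37 ± 0.20 (limma adjusted p = 1.27e-06) was carried by the tissues. Slco1a4, an organic anion transporter of the barrier, had the same form with 1.03, but its call was lost after centring of the arrays (0.99) and without replicate 3 of RT (0.95). The endothelial list as a whole was at 6.86 to 7.08 in RT and 7.5 to 7.63 in BT, and the part of vessel content in these tissue values was not tested. Sox17, an endothelial transcription factor, and Mmrn2, a matrix protein of endothelium, were less enriched at -1.37 and -1.07, and Mmrn2 did not pass the threshold after quantile normalization (-0.90).

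Among 29 tight and adherens junction genes 2 were more and 3 were less enriched in RMVs (median -0.19). Over all genes 10.4% were more and 5.15% were less enriched. Quantile normalization left none of the 29 more and 2 less enriched. The claudin Cldn5, the principal one of the barrier, was not called at 0.84 (interval 0.57 to 1.12). Lsr, angulin-1 of tricellular junctions, was the largest at -1.97 ± 0.10 (limma adjusted p = 1.15e-14). Its signals were 10.94, 11.12 and 11.33 in RMVs and 8.57, 8.65 and 8.74 in RT, while BMVs gave 12.02, 12.26 and 12.31 and BT gave 7.56, 7.82 and 7.94. It was thus enriched in both organs, by 2.47 in RMVs and 4.43 in BMVs, and was classed as carried by the microvessels, with RMVs minus BMVs at -1.11. Every RT array of Lsr was above every BT array, short of 2-fold, so the tissues also contributed to its difference. Of 15 connexins, Gja5, which joins arterial endothelial cells, was the only one less enriched (-1.72), and Gja1, Gjb6 and Gjc3 were more enriched. The glial Gjc3 (2.70) was carried by the tissues.

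Mural cells split in a similar manner. Of 15 pericyte genes 2 were less enriched in RMVs and none was more enriched, with a median of -0.04 (0.01 after quantile normalization). Cox4i2, an isoform of a cytochrome c oxidase subunit that pericytes express, gave 10.31, 10.41 and 10.64 in RMVs and 9.99, 10.24 and 10.47 in RT, while BMVs gave 10.64, 10.86 and 10.99 and BT gave 6.97, 7.36 and 7.58. Only BT was low, and the difference of -3.32 ± 0.14 (limma adjusted p = 1.92e-16) was carried by the tissues. Atp13a5, a P-type ATPase of brain pericytes, was larger in the microvessels, with 6.13 in RMVs and 5.44 in RT, while BMVs gave 10.85 and BT gave 7.44. Of 10 smooth muscle genes 5 were less enriched in RMVs and none was more enriched (median -1.04). Pln, phospholamban, was the largest at -1.59, and 4 of the 5, with Synpo2, Smtn and Myh11, were carried by the microvessels, where Myh11 (-1.21) was not called after quantile normalization (-0.96).

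Of the 280 genes less enriched in RMVs through the microvessels, 135 were called enriched over the tissue in retina and 272 in brain. Many members of the fibroblast list were among them. Perivascular and meningeal fibroblasts are the collagen-producing cells of larger vessels and of the leptomeninges. Of 28 measured genes 15 were less enriched in RMVs and 1 was more enriched, and the median was -1.34. The microvessels carried 7 of the 15, and 6 more were larger in the microvessels. Lum, the small proteoglycan lumican, gave 3.64, 4.0 and 4.19 in RMVs and 3.51, 3.67 and 3.93 in RT, while BMVs gave 9.85, 10.11 and 10.31 and BT gave 5.04, 5.10 and 6.20. The BMV arrays were far above all others, the ranges of RMVs and RT overlapped near the low end of the array, and the difference was -4.51 ± 0.21 (limma adjusted p = 1.32e-15). Dcn, decorin, the related collagen-binding proteoglycan, averaged 5.98 in RMVs and 4.49 in RT, while BMVs gave 12.73 and BT gave 8.69. In both Lum and Dcn RT was also below BT, with the larger part in the microvessels.

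Several transporters that mark the leptomeninges were carried by the microvessels. Slc6a13, a GABA and betaine transporter, gave 6.28, 6.67 and 7.58 in RMVs and 5.91, 6.15 and 8.16 in RT, while BMVs gave 11.39, 11.49 and 11.58 and BT gave 6.78, 6.92 and 7.62. The BMV arrays again stood alone, and the highest array of each of the other groups had replicate number 5. Its difference was -4.20 ± 0.37 (limma adjusted p = 1.95e-10), with RT minus BT at -0.55 (95% interval -1.08 to -0.02). Slc22a6, the organic anion transporter OAT1, and Slc6a20a, the proline transporter SIT1, followed with -3.49 ± 0.15 and -2.94 ± 0.26. Igf2, the fetal growth factor that fibroblasts keep expressing, was opposed, with 7.96 in RMVs and 8.13 in RT, while BMVs gave 9.70 and BT gave 6.44. Ccn3 was the member that went against the list and Slc26a2 (-1.71), a sulfate transporter, was carried by the tissues. Over the 28 genes the mean signal was 7.49 to 7.70 in RMVs and 6.22 to 6.43 in RT, while BMVs gave 9.37 to 9.62 and BT gave 6.83 to 7.07. The share of these cells in the 2 vessel preparations was not tested.

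Perivascular macrophages, the scavenger cells of the vessel sheath, gave 6 of 7 genes less enriched in RMVs, all carried by the microvessels (median -1.80). Mrc1, the mannose receptor CD206, gave 5.09, 5.20 and 5.27 in RMVs and 4.63, 4.88 and 5.07 in RT, while BMVs gave 9.04, 9.15 and 9.28 and BT gave 5.22, 5.75 and 6.00. No BMV array overlapped another group, and the difference was -3.13 ± 0.14 (limma adjusted p = 5.21e-16). The haemoglobin scavenger receptor Cd163 (-2.44) and the hyaluronan receptor Lyve1 (-2.19) followed. The 7 genes averaged 6.06 to 6.32 in RMVs and 5.02 to 5.20 in RT, while BMVs gave 8.44 to 8.57 and BT gave 5.68 to 5.88. Without genes below the median signal only 1 of the 7 was left, and it was not called. Of 13 microglia genes only Tmem119 (1.29) and C1qc (-1.23) were called, in opposite directions. After quantile normalization Tmem119 was not called (0.97) and 3 of the list were less enriched. Of 13 leukocyte genes 3 were less enriched, the largest being the coreceptor Cd4 at -2.06.

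**Figure D5:**
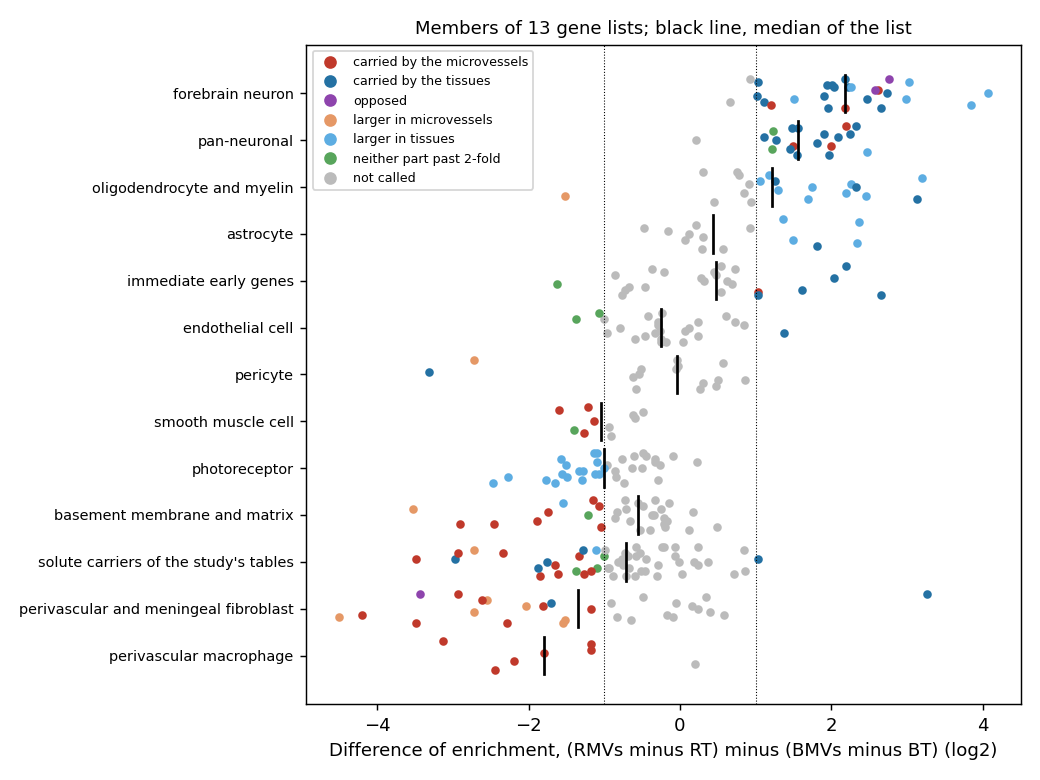
Difference of enrichment (horizontal axis, log2) of each member of 13 gene lists, coloured by the class of called genes; black lines mark the medians and dotted lines 1 and -1. Neuronal lists lie to the right with medians of 1.56 and 2.18, the endothelial and pericyte lists lie near 0, and the fibroblast and macrophage lists lie to the left at -1.34 and -1.80, mostly in the colours of the microvessel classes.

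Basement membrane and matrix genes were less enriched in RMVs in 10 of 31 cases and more enriched in none (median -0.56), and 7 of the 10 were carried by the microvessels. Col12a1, a fibril-associated collagen, averaged 6.26 in RMVs and 5.45 in RT, while BMVs gave 10.81 and BT gave 6.47, and its difference was -3.53 ± 0.12. Lama1, the laminin chain of the parenchymal and pial basement membrane, and Nid2, nidogen-2, were at -2.91 ± 0.11 and -2.46 ± 0.17. Nid2 was enriched in both organs, by 1.26 in RMVs and 3.72 in BMVs, whereas Lama1 was called only in BMVs (0.49 in RMVs and 3.4 in BMVs). Postn, periostin, was less enriched with RMVs above BMVs, at 7.22 in RMVs and 7.91 in RT, while BMVs gave 5.88 and BT gave 5.03.

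Among 52 solute carriers that the study had tabulated, 18 were less enriched in RMVs and 1 was more enriched (median -0.72). The study chose these carriers on the same samples, so their direction is not independent evidence. Slc7a5, the large neutral amino acid transporter, gave 11.71, 11.82 and 12.12 in RMVs and 10.82, 11.005 and 11.28 in RT, while BMVs gave 12.40, 12.57 and 12.72 and BT gave 9.50, 9.88 and 9.95. RMVs were 0.85 above RT and not called, while BMVs were 2.73 above BT, and the difference of -1.88 ± 0.12 was classed as carried by the tissues. Every RMV array of Slc7a5 was below every BMV array, short of 2-fold, so the microvessels also contributed. The potassium-chloride cotransporter Slc12a7 (-2.98) was likewise carried by the tissues, with RT minus BT at 2.42. Slc2a1, the glucose transporter of both barriers, was not called at -0.59 (interval -0.77 to -0.42). Of 8 ABC transporters from the same source, 2 were less enriched, where 5.15% of all genes were less enriched.

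Notch, Wnt, TGF-beta and PDGF signals pass between the cells of the vessel wall. The counts of these lists stand beside 10.4% more and 5.15% less enriched among all genes. Of 21 Notch genes 4 were less enriched in RMVs and none was more enriched (median -0.65). The ligand Jag1 gave 10.51, 10.56 and 10.72 in RMVs and 9.29, 9.53 and 9.66 in RT, while BMVs gave 11.07, 11.12 and 11.29 and BT gave 7.74, 8.06 and 8.18, so that all 4 groups were separate. Its difference of -2.03 ± 0.11 and that of the glycosyltransferase Mfng (-1.74) were carried by the tissues, whereas the receptor Notch2 (-1.54) and the ligand Jag2 (-1.42) were carried by the microvessels. Of 22 Wnt and norrin genes 3 were more and 5 were less enriched, among them the feedback inhibitor Nkd1 (-2.40, tissues) and the Wnt7 coreceptor Reck (-2.08, microvessels). In the TGF-beta and BMP list 4 of 28 genes were less enriched. Bmp7 gave -3.07 ± 0.19 through the microvessels, and Bmp6 averaged 7.0 in RMVs and 6.85 in RT, while BMVs gave 11.68 and BT gave 8.91. Pdgfd (-2.48), a ligand of the PDGF receptor beta, was the largest of 4 less enriched genes among 22 of the PDGF, Tie2 and VEGF pathways.

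Of 23 interferon response genes 5 were less enriched in RMVs (median -0.55; 2 after quantile normalization). Rsad2, viperin, was the largest at -2.05 ± 0.45, and its RT arrays spread from 5.98 to 8.80. None of the 32 oxidative phosphorylation genes was called by limma with the 2-fold threshold, although their median difference was 0.46, and 27 of them were positive at an unadjusted p below 0.05, as were 36.6% of all genes. Choroid plexus and ependymal genes were less enriched in 5 of 14 cases, with Kl (-2.61) and Kcnj13 (-2.13) carried by the tissues, and more enriched only in Enpp2. Replicate 5 of RT stood apart on this list, with a mean signal of 8.20 against a median of 7.49 in RT, and on the list of the retinal pigment epithelium and choroid, with 8.08 against 6.68. Replicate 5 of RMVs was also the highest of its group on both lists. It was at 8.22 against a median of 7.91 in RMVs, and at 7.57 against 6.94. Without replicate 5 of RT the differences were -1.75 for Kcnj13 and -1.27 for Dct, and the bicarbonate transporter Slc4a5 lost its call (-0.88). Of 15 genes of the retinal pigment epithelium and choroid only Dct (-1.5) was called, and of 12 lens and cornea genes only Krt12 (-1.07), which lost its call without replicate 2 of BMVs (-0.98).

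The largest differences of the less enriched genes that were carried by the tissues had a single low group, BT. Prom1, prominin-1, a membrane protein needed for photoreceptor discs, gave 11.15, 11.21 and 11.29 in RMVs and 10.63, 10.75 and 11.28 in RT, while BMVs gave 11.41, 11.65 and 11.75 and BT gave 7.13, 7.23 and 7.58. It was therefore enriched by 4.36 in BMVs and not called in RMVs, with a difference of -3.97 ± 0.13 (limma adjusted p = 1.57e-18). Cav1, caveolin-1 of endothelial caveolae, averaged 10.08 in RMVs and 10.15 in RT, while BMVs gave 11.05 and BT gave 7.89. Its BMVs were above its RMVs, just short of 2-fold, so the microvessels also contributed to its difference of -3.23. Egflam (-3.27), the photoreceptor synapse matrix protein pikachurin, Ptgr1 (-3.40), a prostaglandin reductase, and St6galnac2 (-3.36), a sialyltransferase, completed this set, with RT minus BT between 3.12 and 3.88. For St6galnac2 the interval of RMVs minus BMVs was -0.25 to 0.33.

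The remaining large differences were opposed or had a larger tissue part. Lox, the collagen cross-linking lysyl oxidase, averaged 6.07 in RMVs and 5.17 in RT, while BMVs gave 7.81 and BT gave 3.38, for a difference of -3.52 ± 0.26. The transcription factor Tbx3 (-3.13) and the growth factor Fgf1 (-2.51) were opposed in the same way. Tfap2b, the AP-2 factor of amacrine and horizontal cells, gave 9.10, 9.38 and 9.51 in RMVs and 9.71, 9.86 and 10.02 in RT, while BMVs gave 7.83, 8.05 and 8.30 and BT gave 4.30, 4.42 and 4.67. All 4 groups were separate, and the difference of -4.10 ± 0.12 combined RMVs minus BMVs at 1.29 with RT minus BT at 5.39. Epb41, the membrane skeleton protein 4.1, was at -2.57 ± 0.11. Carried by the microvessels or larger in them were Abca9 (-3.09), an ABC transporter of the A subfamily, and Cfd (-3.59), complement factor D, which averaged 6.28 in RMVs and 6.01 in RT, while BMVs gave 10.90 and BT gave 7.03.

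Photoreceptor genes were less enriched in RMVs in 17 of 33 cases and more enriched in none (median -1.0), all with a larger part in the tissues. Quantile normalization left 6 genes called and a median of -0.58. Abca4, the retinoid flippase of photoreceptor discs, gave 11.56, 11.79 and 11.90 in RMVs and 12.28, 12.40 and 12.51 in RT, while BMVs gave 7.11, 7.27 and 7.39 and BT gave 5.20, 5.42 and 5.66. It was lower in RMVs than in RT in every array and higher in BMVs than in BT in every array, for a difference of -2.47 ± 0.11 (limma adjusted p = 2.61e-16). For the list, the difference arose at unequal levels, with high signals in retina and low signals in brain, where the values of all genes spanned 2.03 to 14.1. The promoters of the 3 called photoreceptor genes with the largest differences that hold TAATCC, a motif bound by the photoreceptor homeodomain factor Crx, are shown with the motif of either strand (TAATCC or GGATTA) in capitals. They are windows as above (GRCr8; Abca4 at chr2:212849235-212849534, plus strand, Gucy2f, a retinal guanylate cyclase, at chrX:110604968-110605267, minus strand, and Cngb1, a subunit of the rod channel, at chr19:9732396-9732695, plus strand).
Abca4: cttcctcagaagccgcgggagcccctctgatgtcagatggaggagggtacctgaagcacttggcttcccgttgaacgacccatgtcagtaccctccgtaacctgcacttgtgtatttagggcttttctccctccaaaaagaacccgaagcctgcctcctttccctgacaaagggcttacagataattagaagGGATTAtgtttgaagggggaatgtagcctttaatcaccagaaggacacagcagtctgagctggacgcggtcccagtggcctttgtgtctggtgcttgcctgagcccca
Gucy2f: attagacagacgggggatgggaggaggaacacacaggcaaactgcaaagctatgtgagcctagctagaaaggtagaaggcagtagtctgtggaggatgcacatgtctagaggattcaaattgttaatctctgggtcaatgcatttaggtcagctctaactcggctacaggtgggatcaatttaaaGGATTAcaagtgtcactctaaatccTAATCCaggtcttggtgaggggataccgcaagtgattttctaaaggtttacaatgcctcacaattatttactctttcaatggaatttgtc
Cngb1: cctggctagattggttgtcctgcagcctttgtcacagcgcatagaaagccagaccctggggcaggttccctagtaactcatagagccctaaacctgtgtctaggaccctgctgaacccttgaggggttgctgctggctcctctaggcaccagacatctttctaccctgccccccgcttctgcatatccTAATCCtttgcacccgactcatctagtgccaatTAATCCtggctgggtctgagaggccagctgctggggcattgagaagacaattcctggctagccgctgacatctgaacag
The motif lay from -58 to -53 in Abca4, from -65 to -60 and from -40 to -35 in Gucy2f, and from -62 to -57 and from -29 to -24 in Cngb1. It was found in 10 of the 27 measured photoreceptor genes with a window, in 7 of the 14 called ones and in 909 of 14564 tested genes (6.24%). Gucy2f (-0.97) and Cngb1 (-0.99) were not called after quantile normalization.

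Among 31 genes of the inner retina 6 were more and 12 were less enriched in RMVs (median -0.26), so the list did not move one way. Quantile normalization left 8 less enriched, and without genes below the median signal 6 of 17 were more and 5 were less enriched, with a median of 0.59. Calb2, calretinin of amacrine and ganglion cells, averaged 10.80 in RMVs and 11.90 in RT, while BMVs gave 5.28 and BT gave 8.25, and was more enriched by 1.86 with the larger part in the microvessels. Tfap2a (-2.50), the AP-2 factor closest to Tfap2b, and Sncg (-1.90), gamma-synuclein of ganglion cells, were less enriched.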

How the data were processed

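Gene expression of RMVs, RT, BMVs and BT was measured with 6 arrays per group. The authors normalized the arrays in Affymetrix Expression Console 4.0, and the deposited values are log2 signals, used here without further normalization. The age of the rats was taken from the study's methods. The summarization method, like the annotation behind it, is not given in the sources used here, and no detection call was used, so it is unknown which low signals exceed background. Of 36685 transcript clusters, 18511 had 1 gene symbol, 575 had several and 17599 had none. Symbols were updated to RefSeq GRCr8 through the Entrez identifier (18394 clusters), and for 291 genes with several clusters the brightest was kept.

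A linear model with the 4 groups was fitted to all 18166 genes with limma 3.58.1 in R 4.3.3, with empirical Bayes moderation and Benjamini-Hochberg adjustment for each contrast. The sampling depth of arrays has no counting equivalent, and the 6 arrays per group limit the precision. The script was tested on simulated data. Genes were named by a rule. From each class these were the 6 largest differences carried by the microvessels or the tissues, the 4 opposed, and the 2 of each remaining class with a larger part, provided that the arrays of the groups concerned did not overlap, and from each of 30 gene lists up to 4 members plus those against the list. Genes of a list that the rule does not cover were chosen after their values were seen. The gene lists and the comparison were chosen with earlier results of these data known. Genes of a list were described by counts and medians without a test of the list. The labels number 6 biological replicates per group. By the study's methods all groups came from the same 6 rats, but the labels do not say whether a number marks 1 rat, and the model treats the 24 arrays as independent. Promoter sequences are from RefSeq (GRCr8), with 14564 genes matched by symbol.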

Additional observations from a re-analysis of the deposited data

Results flagged for a closer look

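In 160 groups of 6 arrays (40 genes named by the rule, 4 groups each), 17 had a highest or lowest array whose gap to its neighbour took more than 0.625 of the range of the group. Chance flags about 1 in 20 groups. Arrays with replicate number 5 recurred. For Slc6a13 the highest array was replicate 5 in RMVs (7.58, gap 0.629 of the range), in RT (8.16, gap 0.811) and in BT (7.62, gap 0.788). Replicate 5 of RT was also highest for Slc6a20a (7.42, gap 0.652) and Prom1 (11.3, gap 0.705) and lowest for Bmp7 (6.55, gap 0.713), and replicate 5 of BMVs was lowest for Slc22a6 (9.91, gap 0.625) and Bmp7 (9.26, gap 0.629). In the brain groups the gap was 0.797 for Drd1 (BT replicate 4, highest), 0.760 for Ano3 (BT replicate 3, lowest), 0.783 for Gabra5 (BMV replicate 1, lowest), 0.764 for Prom1 (BT replicate 1, highest) and 0.684 for St6galnac2 (BMV replicate 2, lowest). In the retinal groups it was 0.643 for St8sia3 (RT replicate 4, highest), 0.756 for Marchf1 (RT replicate 4, lowest), 0.631 for Slc22a6 (RMV replicate 1, lowest) and 0.631 for Egflam (RT replicate 3, highest). No call of these genes changed when any array was left out.

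In 10 genes both enrichments were called and in opposite directions. Higher in RMVs than in RT and lower in BMVs than in BT were Nrgn (difference 3.85), Ccn3 (3.26), Serpine2 (3.18), Mal (3.13), Itpr1 (2.74), Tiam2 (2.57), Sfxn4 (2.45) and Adhfe1 (2.31). The reverse held for Chrnb3 (-2.54), a subunit of the nicotinic acetylcholine receptor, and Rdh12 (-2.27), a retinol dehydrogenase of photoreceptors. Serpine2, the secreted protease inhibitor nexin-1, averaged 9.59 in RMVs and 7.43 in RT, while BMVs gave 10.16 and BT gave 11.19.

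Clusters that the comparisons of genes left out also differed. Of 17599 clusters without a symbol 1855 passed the same threshold, 853 (4.85%) more and 1002 (5.69%) less enriched in RMVs, and of 575 clusters with several symbols 47 passed it, 37 more and 10 less enriched. The median signal of the clusters without a symbol was 5.60. Within each set p-values were adjusted separately.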

How the results depend on the processing

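The 1893 and 935 genes more and less enriched in RMVs stayed within 1.5 times of these counts under quantile normalization (1392 and 949), centring, averaging of clusters, the lower signal filter, other variance models and array weights. Leaving out each array gave 1879 to 1918 and 915 to 958 genes, 256 to 277 and 263 to 300 carried by the microvessels, and 1037 to 1075 and 257 to 283 carried by the tissues. Centring on the array median reduced the genes more enriched through the microvessels to 173, of which 167 were among the 265. Without genes below the median signal, 571 were less enriched, 132 of them through the microvessels and 189 through the tissues, where fewer genes were tested. A 1.5-fold threshold gave 3792 more and 2460 less enriched genes, with 714 and 688 carried by the microvessels and 1655 and 832 by the tissues. A test against a 2-fold change (limma treat) gave 1085 and 372, with 134 and 100 carried by the microvessels and 647 and 115 by the tissues. When the other part was judged by its adjusted p alone, the classes held 117 and 162 genes for the microvessels and 384 and 132 for the tissues. The cause of these shifts, apart from the thresholds and the genes tested, was not tested.

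With the replicate number as a block, 1893 and 937 genes were called. Deviations of arrays with the same number correlated with r from -0.09 to 0.15, above 0.1 in 5 of 36 pairs. In 15 of the 36 pairs each array was the best match of the other, where fewer than 6 would be expected without pairing. Not every pair exceeded 0.1 and the labels do not tie numbers to rats, so the fit without the block was kept, and whether the numbers mark rats is not known. The 40 genes named by the rule kept their calls in every setting in which they were tested, without limma treat, which was applied to counts only. They were chosen for large differences, so this says little about genes near the threshold. Of the 188 other list members called, 47 lost the call after quantile normalization, 5 after centring, 3 with array weights and 24 when some single array was left out. Low signals compress differences, and arrays give no depth.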
